A study of Mus musculus with 6 samples.

Results

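The 9 genes examined encode the subunits of the hypoxia-inducible factors (HIFs), the hydroxylases that sense oxygen for them and the protein that receives the hydroxylated subunit: Hif1a, Epas1, Hif3a, Arnt, Egln1, Egln2, Egln3, Hif1an and Vhl. They were taken by symbol from a table of RNA-seq counts for 46095 genes, all 9 were found, and all 9 were among the 14611 genes with enough counts to be tested. The libraries came from primary renal tubular epithelial cells (PTECs) isolated from 6 mice of 10 weeks of age on a C57 background. In the 3 mice labelled VHL-KO (replicates 1, 2 and 4), Ksp-Cre deletes the floxed VHL alleles, and in the 3 labelled VHL-KO;SETD2-KO (replicates 2, 3 and 4) it deletes floxed Setd2 as well. Ksp-Cre is driven by the promoter of Cdh16, so deletion is limited to cells that have used this tubular promoter. Both groups lack VHL in those cells, and no library with intact VHL was part of the comparison, which asks whether transcripts of the HIF system differ when SETD2, a methyltransferase of histone H3 lysine 36, is lost on top of VHL.

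A HIF is a pair of bHLH-PAS proteins, an oxygen-labile alpha subunit and the stable beta subunit ARNT, and binds a short sequence with the core ACGTG or GCGTG in its target genes. In the presence of oxygen, prolyl hydroxylases of the EGLN family mark the alpha subunit for pVHL, the substrate-binding part of a ubiquitin ligase, while the asparaginyl hydroxylase encoded by Hif1an blocks its contact with the coactivators p300 and CBP. Without pVHL the alpha proteins HIF1α and HIF2α persist at any oxygen tension, which is the hallmark of clear cell renal carcinoma. Most of this control acts on protein, and the counts measured here report transcripts only.

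No member passed the test for a difference between the labels. With edgeR's quasi-likelihood test and Benjamini-Hochberg adjustment over all genes tested, 0 of 9 genes had an adjusted p under 0.05 with at least a 1.5-fold change, against 0.00684% of all genes, and 0 of 9 had an unadjusted p under 0.05 with the same fold, against 7.34% of all genes (2.66% higher and 4.68% lower). At an unadjusted p, DESeq2's Wald test and limma-voom each called 1 of 9, Epas1, as higher, against 1.77% and 2.9% of all genes. At an adjusted p limma-voom called 0 of 9 (0.00684% of all genes), and DESeq2, which gave an adjusted p to 1 of 9 members only (Epas1, 0.186), called 0 (4.03% of genes with one). Epas1, which encodes HIF2α, was the 1 member of 9 whose values did not overlap between the labels, against 20.6% of all genes (9.62% higher and 11% lower), and its fold change was 2.24 with VHL-KO;SETD2-KO the higher label. Fold changes were above 1 for 3 members (Epas1, Hif1a and Arnt) and below 1 for 6, with a median log2 fold change of -0.13 over the members and 0.01 over all genes tested. The most negative was that of Egln2, in which 1 library, VHL-KO 4, stood far above the other 5. This split in direction depended on VHL-KO 4. Without it the fold changes of Egln1, Egln3, Hif1an and Vhl were also above 1, and only those of Hif3a and Egln2 stayed below 1.

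Setd2, the gene deleted in the second group, was counted at 71.3, 73.8 and 12.3 CPM (counts relative to the library total, scaled by edgeR's TMM factors) in VHL-KO 1, 2 and 4 and at 79.5, 57.3 and 89.5 CPM in VHL-KO;SETD2-KO 2, 3 and 4, with a log2 fold change of 0.52 ± 0.64 (SE; edgeR adjusted p = 0.787). It was thus not lower under the label that names its deletion. VHL-KO 4 alone was low, and VHL-KO 1 and 2 lie within the range of the other label. From Western blot, immunohistochemistry and RT-qPCR, the paper reports lower SETD2 and VHL in the renal tubules of its mice. Counts summed over a whole gene cannot show whether a floxed exon is missing, for Setd2 or for Vhl. The group names used here are therefore the labels of the libraries. Totals ranged from 11168552 to 17883466 counts per library, so that 3 counts, taken as the smallest signal above 0, amount to 0.159 to 0.28 CPM, a floor for counting error only. VHL-KO 4 stood apart: mitochondrial genes took 11.3% of its counts and 25.9% to 36.4% of those in the other 5 libraries, and the fold change of each member is therefore also given without it. Cdh16, whose promoter drives Cre, was present in every library at 331 to 2252 CPM, as were summed markers of the proximal tubule (5438 to 24880 CPM), podocytes (1435 to 4828 CPM) and endothelium (1460 to 4523 CPM). Summed markers of the thick ascending limb and distal tubule (1194 to 4796 CPM), macrophages and leukocytes (145 to 722 CPM), collecting duct (51.0 to 551 CPM) and stroma (70.1 to 321 CPM) were present too, and no marker of these lists was at 0 in any library.

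**Figure D1:**
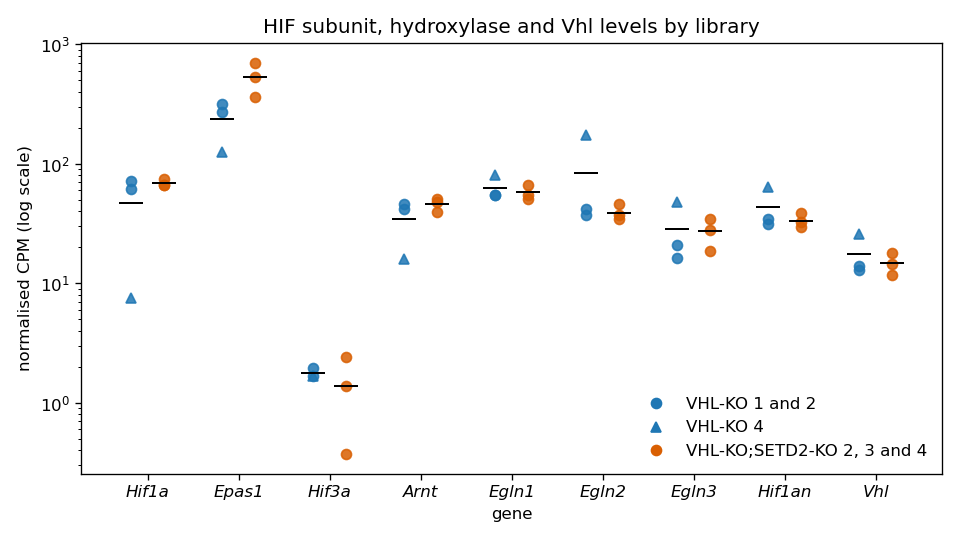
Normalised CPM (log scale) of the 9 genes in each library. Points are single mice and horizontal bars are group means, with VHL-KO on the left and VHL-KO;SETD2-KO on the right of each gene. The triangle, VHL-KO 4, is the lowest VHL-KO point for Hif1a, Epas1 and Arnt and the highest for Egln1, Egln2, Egln3, Hif1an and Vhl.

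The 3 alpha subunits were present at very unequal levels. Epas1 lies at chr17:86753700-86833410 (GRCm38, plus strand) and encodes HIF2α, the alpha subunit known for its roles in endothelium and erythropoietin control and as a driver of renal carcinoma. Epas1 stood at 271.8, 319.7 and 125.1 CPM in VHL-KO 1, 2 and 4 and at 705, 364.6 and 532.5 CPM in VHL-KO;SETD2-KO 2, 3 and 4. Every value under the second label was above every value under the first, although VHL-KO 2 and VHL-KO;SETD2-KO 3 were close. The means were 238.9 ± 101.4 and 534 ± 170.2 CPM (SD, n = 3 each), a log2 fold change of 1.16 ± 0.51 (SE) with a 95% interval of -0.017 to 2.34. Its edgeR p was 0.0527 unadjusted and 0.625 adjusted. Without VHL-KO 4 the fold was 1.80 (95% interval 1.07 to 3.04, edgeR adjusted p = 0.21) and its unadjusted p was 0.033, a call that 8.29% of all genes then shared in the same direction. Across 17 other ways to process the counts its log2 fold change stayed between 0.84 and 1.62 and its adjusted p ran from 0.0102 to 0.982. The lowest came from limma-voom with sample quality weights, a fit that gives deviant libraries less weight and called 9.94% of all genes as higher at an adjusted p.

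Epas1 is also strongly expressed outside the tubule, so its values were set beside the marker lists. The 8 endothelial markers summed to 1626, 1927 and 1460 CPM in VHL-KO 1, 2 and 4 and to 4523, 1518 and 3726 CPM in VHL-KO;SETD2-KO 2, 3 and 4. The 5 podocyte markers summed to 1435, 1924 and 2085 CPM against 4828, 1967 and 4289 CPM in the same order. The libraries with the most Epas1, VHL-KO;SETD2-KO 2 and 4, were thus also those with the most endothelial and podocyte signal, whereas in VHL-KO;SETD2-KO 3 Epas1 was slightly above VHL-KO 1 and 2 and the endothelial sum slightly below them. Of the endothelial markers 7 of 8 had a fold change above 1, with a median log2 fold change of 0.99, and 0 of 8 passed an unadjusted p under 0.05 in edgeR. Of the podocyte markers 3 of 5 passed an unadjusted p as higher, against 2.66% of all genes, and 0 of 5 passed an adjusted p. Within each library, the log2 ratio of Epas1 to the endothelial sum was -2.58, -2.59 and -3.54 under VHL-KO and -2.68, -2.06 and -2.81 under VHL-KO;SETD2-KO, and these ranges overlap. The ratio to the podocyte sum overlapped too, from -4.06 to -2.40 and from -3.01 to -2.43. Relative to the 8 proximal tubule markers the ratio did not overlap, from -7.63 to -5.24 and from -4.45 to -2.95, and those markers themselves summed to 12630, 12040 and 24880 CPM against 5438, 7987 and 6601 CPM. This was the only one of the 8 marker lists without overlap. For the tubular segments in which Ksp-Cre is mainly active, the ratio ran from -5.26 to -2.14 and from -3.49 to -1.07 for thick ascending limb and distal tubule, and from -2.14 to 2.41 and from 0.37 to 3.13 for collecting duct. Relative to Cdh16 itself it ran from -4.17 to -0.69 and from -0.91 to 1.09, and stroma and leukocytes overlapped too. In bulk RNA, more cells of a type and more transcript per cell cannot be told apart, and the part of other cell types in the Epas1 values was not tested further.

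**Figure D2:**
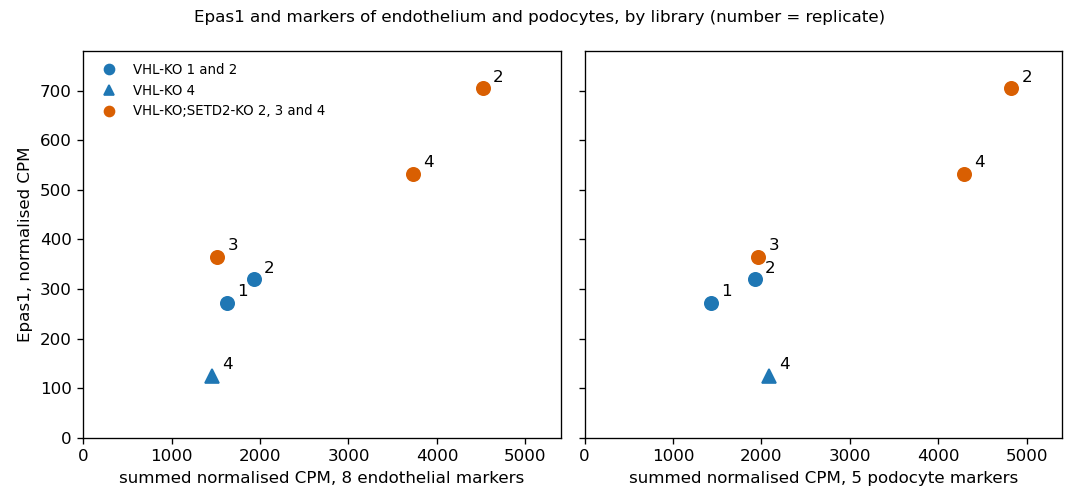
Epas1 (normalised CPM) in each library against the summed normalised CPM of 8 endothelial markers (left) and 5 podocyte markers (right), with each point 1 mouse numbered by replicate. VHL-KO;SETD2-KO 2 and 4 lie at the upper right in both panels, whereas VHL-KO;SETD2-KO 3 lies near VHL-KO 1 and 2.

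Hif1a (chr12:73901375-73947530, plus strand) encodes HIF1α, the alpha subunit best known for switching cells to glycolysis. Hif1a stood at 62.0, 72.2 and 7.56 CPM in VHL-KO 1, 2 and 4 and at 66.7, 75.0 and 66.6 CPM in VHL-KO;SETD2-KO 2, 3 and 4. Of these, 5 values lie within 62.0 to 75.0 CPM and VHL-KO 4 lies far under them, with 81 counts. The log2 fold change was 0.55 ± 0.71 (SE; 95% interval -1.08 to 2.19, edgeR adjusted p = 0.796). Without VHL-KO 4 the fold was 1.03 with a 95% interval of 0.816 to 1.31. That fit leaves only VHL-KO 1 and 2 under the first label. The interval over all 6 libraries includes a 1.5-fold difference, which is therefore not excluded.

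Hif3a (chr7:17031507-17062427, minus strand) encodes an alpha subunit with splice forms that restrain the other HIFs. Hif3a was counted 32, 18 and 18 times in VHL-KO 1, 2 and 4 and 7, 43 and 22 times in VHL-KO;SETD2-KO 2, 3 and 4, or 0.371 to 2.42 CPM. The values of VHL-KO lie inside the range of VHL-KO;SETD2-KO, and the log2 fold change was -0.35 ± 0.68 (SE; edgeR adjusted p = 0.859), or -0.39 ± 0.74 without VHL-KO 4. The 95% interval ran from -1.92 to 1.225 on the log2 scale, so a change of 2-fold in either direction was not excluded.

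Arnt (chr3:95434388-95497240, plus strand) encodes the beta subunit that pairs with every alpha subunit and with other bHLH-PAS proteins. Arnt stood at 41.6, 46.1 and 16.0 CPM in VHL-KO 1, 2 and 4 and at 48.1, 39.9 and 51.1 CPM in VHL-KO;SETD2-KO 2, 3 and 4. As with Hif1a, 5 libraries lie close together and VHL-KO 4 is low. The log2 fold change of 0.42 ± 0.47 (SE; edgeR adjusted p = 0.771) became 0.08 ± 0.15 without that library, a fold of 1.05 with a 95% interval of 0.811 to 1.37.

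Divided by the length of their exons, the alpha subunit transcripts were mainly Epas1 in every library. These shares are of bulk RNA that also held endothelial and podocyte signal, and the shares within tubule cells were not tested. Epas1 made up 81.8%, 82.1% and 93.6% of the CPM per kb of the 3 alpha genes in VHL-KO 1, 2 and 4 and 91.7%, 83.3% and 89.2% in VHL-KO;SETD2-KO 2, 3 and 4, or 85.8% ± 6.73 and 88.1% ± 4.33 (SD, n = 3). Hif1a made up 5.36% to 17.7% and 8.23% to 16.2%, and Hif3a at most 1.05%. The log2 ratio of Epas1 to Hif1a counts, which needs no scaling between libraries, was 2.13, 2.14 and 4.02 under VHL-KO and 3.40, 2.28 and 3.00 under VHL-KO;SETD2-KO. The labels overlap and their means differ by 0.13 (exact two-sided permutation test, p = 0.8, adjusted over 3 ratios 0.8), where 0.1 is the smallest p that 3 against 3 allow. The overlap comes from VHL-KO 4 alone, and without it the means differ by 0.76. The ratio of Hif3a to Hif1a differed by -1.74 (exact permutation p = 0.3, adjusted 0.8), with -2.05 in VHL-KO 4 and -7.13 to -4.89 elsewhere, and by -0.73 without VHL-KO 4.

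**Figure D3:**
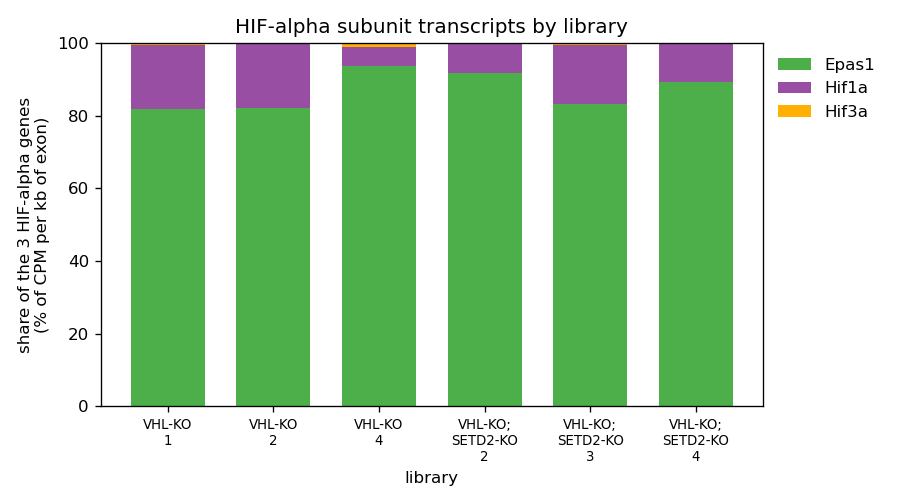
Share of Epas1, Hif1a and Hif3a in the summed CPM per kb of exon of the 3 alpha subunit genes (%), 1 bar per mouse. Epas1 takes 81.8% to 93.6% of every bar, in bulk RNA of all cell types present. The labels overlap through VHL-KO 4 alone, which has the largest Epas1 share.

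None of the 3 prolyl hydroxylase genes differed between the labels beyond the spread of the libraries. EGLN1 (PHD2) sets HIF levels in most normoxic cells, whereas Egln3 (PHD3) is itself a classical HIF target and takes part in feedback. The bases just upstream of the annotated starts of the 3 Egln genes are shown because they carry the letters that HIFs recognise. They are from RefSeq on GRCm38.p6, 5′ to 3′ on the gene's strand, and capitals mark ACGTG or GCGTG on either strand (CACGT or CACGC where the letters are on the other strand).
Egln1 (chr8:124949325-124949504, minus strand): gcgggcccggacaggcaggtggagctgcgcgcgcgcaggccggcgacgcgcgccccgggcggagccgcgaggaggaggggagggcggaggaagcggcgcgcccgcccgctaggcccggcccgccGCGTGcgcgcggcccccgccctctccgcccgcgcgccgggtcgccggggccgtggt
Egln2 (chr7:27166803-27167052, minus strand): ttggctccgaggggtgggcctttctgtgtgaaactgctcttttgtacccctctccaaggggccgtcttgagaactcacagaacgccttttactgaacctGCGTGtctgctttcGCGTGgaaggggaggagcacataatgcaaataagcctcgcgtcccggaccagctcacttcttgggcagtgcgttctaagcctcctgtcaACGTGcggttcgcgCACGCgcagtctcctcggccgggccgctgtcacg
Egln3 (chr12:54203875-54204124, minus strand): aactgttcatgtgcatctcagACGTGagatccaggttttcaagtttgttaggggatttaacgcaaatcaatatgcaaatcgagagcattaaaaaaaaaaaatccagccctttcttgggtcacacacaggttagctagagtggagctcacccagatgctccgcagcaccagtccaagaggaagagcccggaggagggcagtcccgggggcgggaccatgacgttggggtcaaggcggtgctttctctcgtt
In the 250 bases upstream, Egln2 holds 4 copies, Egln1 holds 2 (1 of them in the stretch shown, which stops at the first annotated exon) and Egln3 holds 1. Among 32851 promoters of the same length, 38.6% hold at least 1 copy, 16.7% at least 2 and 2.6% at least 4, with a CACGTG read on both strands counted as 2. Of the other members with an entry, Hif1a holds 3 copies, 2 of them from 1 CACGTG, Hif3a 2 and Arnt 1, and none was found in the windows of Hif1an and Vhl. The Hif1a window (chr12:73907617-73907866) precedes a RefSeq start that lies inside the gene span given above, not the start of that span. These are matches of letters in a short window and say nothing of binding.

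Egln1 (chr8:124908587-124949324, minus strand) stood at 54.9, 54.4 and 79.9 CPM in VHL-KO 1, 2 and 4 and at 51.1, 66.6 and 55.2 CPM in VHL-KO;SETD2-KO 2, 3 and 4. The labels overlap, with VHL-KO 4 the highest value, and the log2 fold change was -0.13 ± 0.38 (SE; edgeR adjusted p = 0.909). Without VHL-KO 4 the sign turned, to a fold of 1.05 with a 95% interval of 0.809 to 1.37.

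Egln2 (chr7:27158658-27166802, minus strand), which encodes PHD1, had the most negative fold change of the members. Egln2 stood at 41.5, 37.1 and 173.2 CPM in VHL-KO 1, 2 and 4 and at 37.2, 45.8 and 34.5 CPM in VHL-KO;SETD2-KO 2, 3 and 4. VHL-KO 4 alone was high, and the other 5 libraries lie within 34.5 to 45.8 CPM. The log2 fold change of -1.10 ± 0.64 (SE; edgeR adjusted p = 0.626) became -0.01 ± 0.17 without that library, a fold of 0.993 with a 95% interval of 0.748 to 1.32.

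Egln3 (chr12:54178981-54203860, minus strand) stood at 21.1, 16.2 and 47.7 CPM in VHL-KO 1, 2 and 4 and at 18.7, 28.1 and 34.8 CPM in VHL-KO;SETD2-KO 2, 3 and 4. The labels overlap, with VHL-KO 4 highest of all. Its log2 fold change was -0.06 ± 0.51 (SE; edgeR adjusted p = 0.973), and without VHL-KO 4 it was 0.54 ± 0.29, a fold of 1.45 with a 95% interval of 0.886 to 2.37 (adjusted p = 0.348). The log2 ratio of Egln3 to Egln1 counts was -1.38, -1.73 and -0.74 under VHL-KO and -1.45, -1.24 and -0.66 under VHL-KO;SETD2-KO. The means differ by 0.17 (exact permutation p = 0.6, adjusted 0.8), and by 0.44 without VHL-KO 4.

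Hif1an (chr19:44562850-44576274, plus strand) encodes FIH, the asparaginyl hydroxylase. Hif1an stood at 34.4, 31.6 and 64.4 CPM in VHL-KO 1, 2 and 4 and at 32.5, 38.5 and 29.6 CPM in VHL-KO;SETD2-KO 2, 3 and 4. VHL-KO 4 is again the one high value. The log2 fold change was -0.37 ± 0.42 (SE; edgeR adjusted p = 0.771) and without that library 0.02 ± 0.16, a fold of 1.01 with a 95% interval of 0.772 to 1.33.

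Vhl (chr6:113623959-113631633, plus strand) is floxed in all 6 mice. Vhl stood at 14.0, 12.8 and 25.8 CPM in VHL-KO 1, 2 and 4 and at 14.4, 17.8 and 11.8 CPM in VHL-KO;SETD2-KO 2, 3 and 4, or 139 to 317 counts per library. Transcript reads were therefore still assigned to Vhl under both labels, whether from the remaining exons of a recombined allele or from cells without Cre, which gene counts cannot tell apart. The log2 fold change was -0.26 ± 0.43 (SE; edgeR adjusted p = 0.833), and without VHL-KO 4 it turned to 0.12 ± 0.22, a fold of 1.09 with a 95% interval of 0.752 to 1.58.

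**Figure D4:**
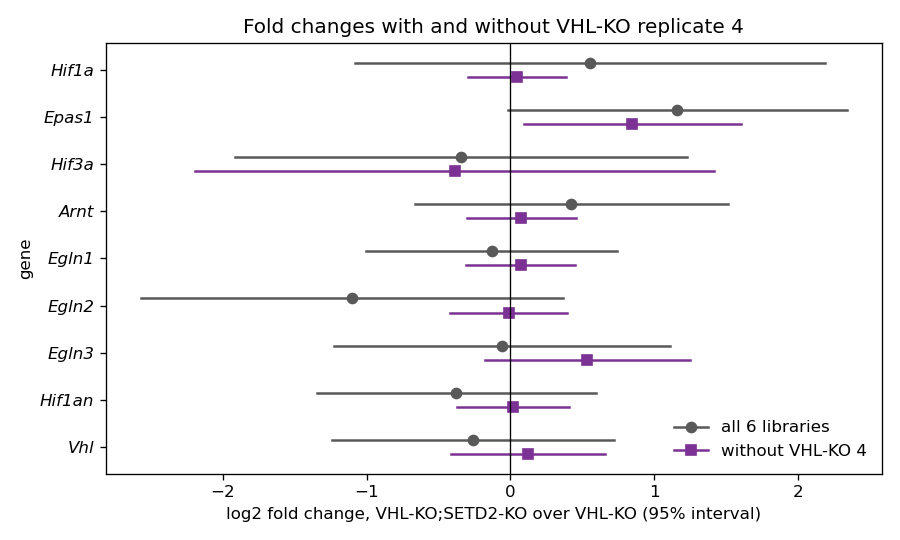
Log2 fold change of each gene, VHL-KO;SETD2-KO over VHL-KO, with its 95% interval from edgeR's quasi-likelihood fit, for all 6 libraries (circles) and without VHL-KO 4 (squares). The interval narrows for every gene but Hif3a when VHL-KO 4 is left out, and that of Epas1 is then the only one that lies wholly above 0.

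The displacement of VHL-KO 4 from VHL-KO 1 and 2 was largest for Hif1a and Egln2 and had opposite signs. Hif1a was at 0.115 of the mean of those libraries and Egln2 at 4.40 times it. Epas1 was at 0.425, Arnt at 0.366, Egln3 at 2.57, Hif1an at 1.95, Vhl at 1.91 and Egln1 at 1.46 times. Hif3a, at 0.941, was the least displaced. Hif1a has the lowest GC content of the members (41.3% in its longest transcript) and Egln2 the highest (62.2%). Over all tested genes with a known sequence, the same log2 difference had medians of -2.18, -0.91, 0.755 and 1.51 in 4 groups of rising GC content, whereas the libraries labelled VHL-KO;SETD2-KO differed from VHL-KO 1 and 2 by medians of -0.034 to 0.111. With a per-gene offset for GC content and transcript length in each library, an alternative that was not planned but chosen on seeing these data, the log2 fold change of Egln2 was -0.35, that of Hif1a 0.31 and that of Epas1 1.07. Epas1 (52.5% GC) lay below the median of its GC group, at a log2 difference of -1.24. Hif1a, Arnt, Egln1 and Hif3a also lay below the medians of their groups, and Egln2, Egln3, Hif1an and Vhl above.

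**Figure D5:**
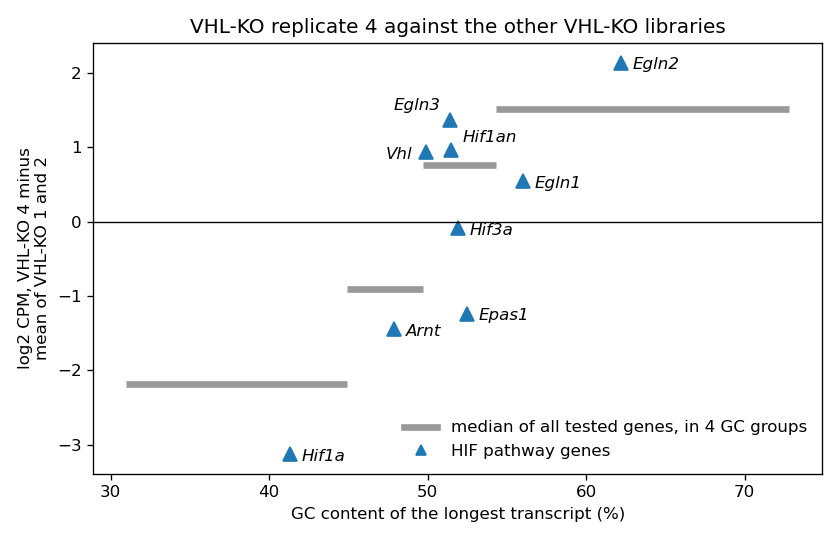
Log2 CPM in VHL-KO 4 minus the mean of VHL-KO 1 and 2 for the 9 genes (triangles) against the GC content of the longest transcript (%). Grey bars are the medians of all tested genes in 4 groups of GC content, which run from -2.18 to 1.51.

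Per kb of exon, the 9 genes fell into the following order of mean level over the 6 libraries: Epas1 (69.1 CPM per kb), Egln2 (22.0), Egln1 (16.8), Egln3 (10.4), Hif1a (9.90), Hif1an (5.83), Vhl (5.38), Arnt (5.05) and Hif3a (0.235). Egln1 exceeded Egln3, and Arnt exceeded Hif3a, in 6 of 6 libraries. Epas1 exceeded Egln2, Hif1a exceeded Hif1an and Hif1an exceeded Vhl in 5 of 6 libraries. The other neighbours did not hold their order: Egln2 exceeded Egln1 in 1 of 6 libraries, Egln3 exceeded Hif1a in 2 and Vhl exceeded Arnt in 2. Prolyl hydroxylase transcripts were thus each more abundant per length than those of Hif1an and Vhl on average, and Hif3a was the least abundant member in every library. These levels, too, are of bulk RNA of all cell types present.

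Among the partners of pVHL and the deubiquitinases that oppose it, Usp20 was lower in every library labelled VHL-KO;SETD2-KO, at 27.1 to 33.7 CPM against 58.5 to 175 CPM. Of 6 listed genes (Elob, Eloc, Cul2, Rbx1, Usp20 and Usp33), 6 were tested, 0 passed an adjusted p, and 1, Usp20, passed unadjusted as lower, against 4.68% of all genes. Usp20 encodes a deubiquitinase that pVHL targets and that stabilises HIF1α. Usp20 stood at 74.9, 58.5 and 175 CPM in VHL-KO 1, 2 and 4 and at 33.7, 27.1 and 33.4 CPM in VHL-KO;SETD2-KO 2, 3 and 4. The lowest value under VHL-KO is well above the highest under the other label, and the log2 fold change was -1.71 ± 0.51 (SE). Its edgeR p was 0.00957 unadjusted and 0.625 adjusted. Without VHL-KO 4 it was -1.09 ± 0.17 (edgeR adjusted p = 0.0776, DESeq2 adjusted p = 0.000292), in fits that called 0.00667% and 4.78% of genes as lower. Its relative Usp33 had the highest log2 fold change of the list, 0.42 ± 0.66, with 9.24 CPM in VHL-KO 4 and 52.9 to 65.0 CPM elsewhere, and it turned to -0.06 ± 0.14 without VHL-KO 4. The list's median log2 fold change was -0.12.

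Among 10 relatives and regulators of the hydroxylases, 10 were tested and 0 passed at an adjusted or an unadjusted p in edgeR, with a median log2 fold change of -0.25. Siah1a and Siah2 encode ubiquitin ligases that degrade prolyl hydroxylases. Siah1a had the highest log2 fold change, 0.53 ± 0.43 (0.24 ± 0.16 without VHL-KO 4), and did not overlap, at 6.35 to 14.6 CPM under VHL-KO and 15.2 to 17.5 CPM under VHL-KO;SETD2-KO. Siah2 did not overlap in the other direction, at 14.3 to 20.3 and 10.6 to 12.7 CPM, with -0.60 ± 0.36 (-0.48 ± 0.18 without VHL-KO 4). These were 2 of 10 genes without overlap, against 20.6% of all genes. Fkbp8, whose product binds PHD2, had the lowest value, -1.48 ± 0.76, and became -0.01 ± 0.17 without VHL-KO 4, where it stood at 684 CPM against 92.8 to 125 CPM elsewhere. Without VHL-KO 4, 3 of the 10 genes passed unadjusted and were higher, against 8.29% of all genes.

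Of 7 coactivators and inhibitors of the contact with p300 and CBP, 6 were tested and 0 passed at either p in edgeR, with a median log2 fold change of 0.06. Ep300, which encodes p300, was the highest at 0.47 ± 0.63 and 0.0042 ± 0.16 without VHL-KO 4. Cited4 was the lowest at -1.16 ± 1.00, from 0.212 to 4.86 CPM in all, and turned to 0.44 ± 0.85 without VHL-KO 4. Of 12 other bHLH-PAS genes, 8 were tested, 0 passed an adjusted p and 1 passed unadjusted as higher, against 2.66% of all genes. That gene was Sim1, which stood at 4.24, 6.65 and 2.05 CPM in VHL-KO 1, 2 and 4 and at 5.36, 21.6 and 10.3 CPM in VHL-KO;SETD2-KO 2, 3 and 4. Its groups overlap, and its log2 fold change was 1.52 ± 0.65. Its edgeR p was 0.0457 unadjusted and 0.625 adjusted. Without VHL-KO 4 Sim1 was no longer called (1.19 ± 0.61, unadjusted p 0.0981 in edgeR), and the gene called higher in its place was Ahr, the aryl hydrocarbon receptor (0.79 ± 0.29, unadjusted p 0.033). Arntl2, a partner in circadian transcription, was lowest at -0.90 ± 0.41, with 6.37 to 6.54 CPM against 2.87 to 3.98 CPM and no overlap (-0.89 ± 0.26 without VHL-KO 4, where edgeR called it lower at an unadjusted p of 0.0148). Ahr (1.26 ± 0.66) and Arntl (1.11 ± 0.65), the circadian factor BMAL1, did not overlap either and were higher, so that 3 of 8 genes had no overlap, against 20.6% of all genes. The list's median log2 fold change was 0.47.

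HIF target genes outside the 9 members were split in direction, with 9 fold changes above 1 and 5 below. Of 15 listed, 14 were tested, 0 passed an adjusted p in edgeR, 1 was lower at an unadjusted p, against 4.68% of all genes, and the median log2 fold change was 0.07. That gene was Car9, which encodes a carbonic anhydrase widely used as a readout of HIF1α. Car9 stood at 16.3, 20.3 and 57.8 CPM in VHL-KO 1, 2 and 4 and at 4.40, 2.31 and 11.7 CPM in VHL-KO;SETD2-KO 2, 3 and 4. All values under the second label are lower, with a log2 fold change of -2.36 ± 0.74 (SE). Its edgeR p was 0.0127 unadjusted and 0.625 adjusted, and without VHL-KO 4 the log2 fold change was -1.59 ± 0.62 (edgeR adjusted p = 0.231). Pdk1, which encodes a kinase that keeps pyruvate from oxidation in mitochondria, was the highest at 0.89 ± 0.52 (0.56 ± 0.36 without VHL-KO 4). Non-overlapping targets were split, with Vegfa and Adm higher (log2 fold changes 0.73 ± 0.50 and 0.77 ± 0.47, and 0.39 ± 0.17 and 0.43 ± 0.15 without VHL-KO 4) and Ldha lower like Car9 (-1.47 ± 0.66, and -0.41 ± 0.19 without VHL-KO 4), 4 of 14 against 20.6% of all genes. Vegfa and Adm encode secreted peptides that act on vessels, and Ldha a subunit of lactate dehydrogenase.

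The genes whose profile over the 6 libraries was most like that of a member were found by the root-mean-square (RMS) difference of log2 CPM, each gene centred on its own mean. For Epas1 these were Tpm4 (0.069), Paqr8 (0.072) and Maml2 (0.088). Tpm4, an actin-binding tropomyosin, ran from 40.1 CPM in VHL-KO 4 to 251 CPM in VHL-KO;SETD2-KO 2. For Hif1a they were 2610002M06Rik (0.064), Zcchc7 (0.077) and Mier3 (0.078), which all share its low value in VHL-KO 4. For Vhl they were Ankrd39 (0.052), Tmem59 (0.052) and Higd1a (0.059), which were all highest in VHL-KO 4. That VHL-KO 4 is the extreme library for these genes follows from choosing them for their likeness to Hif1a and Vhl, and is no separate result.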

How the data were processed

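RNA of PTECs was measured in 6 mice, 3 for each genotype label. Directional libraries were read from both ends with Illumina sequencing, and the values deposited are raw counts, 1 row per gene symbol. The submitters' processing notes name HISAT2 2.0.4 and the build GRCm38. The counting program, the annotation and the use of strand are not given in the sources used here, so counts of Hif1a, Hif3a and Egln2, which overlap genes on the other strand, may hold reads of those genes. Hif1a, Epas1 and Arnt also overlap other gene models on their own strand.

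From the deposited counts, 14611 of 46095 genes passed edgeR's filterByExpr and were tested with edgeR 4.0.16 (TMM, quasi-likelihood test, label as the only factor, R 4.3.3). Calls required a p under 0.05, adjusted by Benjamini-Hochberg or not, and at least 1.5-fold. DESeq2 1.42.0, limma 3.58.1 (voom), other filters, library sizes and normalizations, a replicate block, other pseudocounts (2 counts were added to each count before log2 ratios in the main values) and leaving out each library were alternatives. An offset for GC content and length was added after seeing the data. Log2 CPM used a prior count of 2. Mitochondrial genes were taken by chromosome, since their symbols carry no prefix. Counts of any pair of libraries differed beyond sampling noise (chi-square per degree of freedom at least 13.8), so none repeats the sequencing of another. This cannot show that they come from separate mice, which is taken from the paper's number of mice per group. Positions, exon lengths and GC content came from GENCODE M21, which covered 94.5% of tested genes. Promoters came from RefSeq (8 of 9 members matched, all but Epas1). The fits were also run on simulated counts, which held no deviant library such as VHL-KO 4, so that run says nothing of its effect.

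The members and the gene lists were chosen with earlier results of these data known. Named are the 9 members, Setd2, the highest and lowest fold change and any unadjusted p under 0.05 in each pathway list, and the 3 genes most like Hif1a, Epas1 and Vhl. Siah2, Ahr, Arntl, Vegfa, Adm and Ldha were named after their values were seen. The results of 1 marker gene are not reported here.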

Additional observations from a re-analysis of the deposited data

How the results depend on the processing

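Over 17 alternatives the log2 fold changes of Epas1, Hif1a, Arnt and Egln2 kept their sign. Against 0 members called as reported, 1 member, Epas1, was called higher at an unadjusted p by DESeq2 with all libraries or without VHL-KO 4, limma-voom with or without sample quality weights, the fit with no filter, the GC and length offset, and edgeR without VHL-KO 4 or VHL-KO;SETD2-KO 3 (leaving out 1 library gave 0 to 1), and with quality weights also at an adjusted p. The sign turned for Egln3 to 0.0102 and 0.0103 with library sizes without the 20 highest or the mitochondrial genes, 0.0542 with limma-voom, 0.53 with quality weights, 0.0224 with no filter, 0.53 with DESeq2 without VHL-KO 4, 0.22 with the offset and -0.32 to 0.54 on leaving out 1 library (0.18 without VHL-KO;SETD2-KO 2). It turned for Egln1 to 0.0636 with DESeq2 without VHL-KO 4, 0.082 with the offset and -0.24 to 0.0719 on leaving out 1 library, for Hif1an to 0.0095 in that DESeq2 fit and -0.54 to 0.0182, for Vhl to 0.11 and -0.42 to 0.12, and for Hif3a to 0.12 without VHL-KO;SETD2-KO 2 (range -1.01 to 0.12). The cause was not tested.

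Over all genes, 388 were higher and 684 lower at an unadjusted p, and 0 and 1 at an adjusted p. DESeq2 gave 449 and 1123, and 1 and 50 adjusted. DESeq2 without VHL-KO 4 gave 1485 and 1125, and 493 and 676 adjusted, and quality weights 2125 and 1527, and 1453 and 1205 adjusted. No filter gave 634 higher and 936 lower, and 0 and 2 adjusted. At least 10 counts in every sample gave 0 adjusted, and the offset gave 803 and 1220 unadjusted. Leaving out 1 library gave 179 to 1243 higher, 206 to 1078 lower and 0 to 1 lower adjusted.

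Calls in the pathway lists changed by at most 3 genes. Among the hydroxylase regulators, 0 unadjusted as reported, 1 was lower with DESeq2, 1 higher with the offset, 1 higher with quality weights (1 adjusted), 3 higher with DESeq2 without VHL-KO 4, and 0 to 3 higher and 0 to 1 lower on leaving out 1 library. Among the bHLH-PAS genes, 1 higher and 0 lower as reported, 1 was lower with RLE factors, limma-voom (0 higher), at least 10 counts and the offset, 2 were higher with no filter, 2 higher and 1 lower with DESeq2 without VHL-KO 4 and with quality weights (1 and 1 adjusted), and 0 to 2 higher and 0 to 1 lower on leaving out 1 library. Among the HIF targets 2 were lower with DESeq2, no filter and quality weights (2 adjusted), and 1 to 2 on leaving out 1 library. Usp20 was called adjusted with quality weights and with DESeq2 without VHL-KO 4 (1 lower each) and lost its unadjusted call with the block (0).

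Leaving out 1 library moved the difference in the Epas1 to Hif1a ratio between -0.19 and 0.76 (-0.18 without VHL-KO 2, -0.12 without VHL-KO;SETD2-KO 2) and that of Egln3 to Egln1 between -0.0604 and 0.44 (-0.0567 without VHL-KO 2). Replicate numbers 2 and 4 occur under both labels. Deviations of the libraries that share a number from their label means correlated at 0.165 and -0.319. The VHL-KO mean includes VHL-KO 4, which shapes the deviations of that label, so these values cannot decide whether the numbers mark pairs. The fit with that number as a block called 93 higher and 54 lower at an unadjusted p. In that fit replicates 1 and 3 occur under a single label, so few libraries are left to estimate the spread. With 3 mice a label, the 95% interval of every member includes no change and also a 1.5-fold difference in at least 1 direction.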
